A study of Mus musculus with 4 samples.

Results

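The genes described here are 38 mouse genes that are normally used in germ cells and kept silent in most somatic cells, out of 55487 genes counted in a set of osteosarcoma libraries. They were chosen by symbol and selected on their CPM in these same 4 libraries, with earlier results known, so every value below is a description of these libraries, and the genes themselves are not tested as a set. All 38 symbols were found, each as a protein-coding Ensembl gene. CPM is a gene's count scaled to the total count of its library. A gene was called on in a library at 1 CPM or more, and off below it.

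The tumours came from AXT cells, a mouse osteosarcoma line made from bone marrow stromal cells that lack Ink4a/Arf and overexpress c-MYC, features that all libraries share. The HIF-1alpha knockout tumours (genotype HIF-1alpha KO, cell lines HIF-1alphaKO AXT1-1, AXT1-2 and AXT2) gave 3 libraries, and the mock tumour (Mock AXT, genotype WT) gave 1. Cells were injected with matrigel into C57BL/6scid mice, which lack mature lymphocytes but keep myeloid cells, and tumours were taken after 1 day. The count columns are named c11, c15, c22 and mock, and the sources used here do not tie each numbered column to 1 of the 3 knockout lines. No label says whether the knockout tumours came from separate animals, so their spread may be partly technical.

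The libraries held 12910058 (c11), 13193264 (c15), 13081007 (c22) and 12383719 (mock) counts. A count of 0 allowed a level of up to 0.232, 0.227, 0.229 and 0.242 CPM in the same order, for counting error only, as do all intervals below. Hif1a, the targeted gene, was at 104 (c11), 98.7 (c15) and 22.3 CPM (c22), against 107 CPM in mock. Gene-level counts of a locus do not show whether protein is made, so these values do not check the labels. All 10 osteoblast lineage markers reached 1 CPM in at least 1 library, with a summed level of 3491, 3748 and 8816 CPM in c11, c15 and c22, against 4280 CPM in mock. Host cells were present as well. Their markers were uneven, with macrophage markers (12 genes) at 265 (c11), 375 (c15) and 473 CPM (c22), against 850 CPM in mock. Skeletal muscle markers (8 genes) summed to 12.6, 1.74 and 36.2 CPM in the knockout libraries, against 111 CPM in mock, and erythroid markers (6 genes) to 1.63, 4.24 and 41.1 CPM, against 116 CPM. Myh4 and Tnnt3 of the muscle list had 0 counts in c11 and c15.

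Germ cells protect their genome from transposons with PIWI proteins, which carry small piRNAs, and with Tudor-domain proteins that assemble the pathway in granules called nuage. At meiosis they build the synaptonemal complex and a meiotic form of cohesin, which hold and recombine paired chromosomes. In somatic cells many of these genes have CpG-rich promoters that are kept shut by DNA methylation and by a Polycomb complex, PRC1.6, whose subunits Mga with Max bind E-box letters and E2f6 with its partner binds E2F letters. Tumours are known to switch some of them on, and such genes are called cancer testis genes.

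Most of the 38 genes were off in every library. In total 26 stayed under 1 CPM throughout, and 13 of those had no count in any library. The other 12 (31.6%) reached 1 CPM in at least 1 library, against 27.3% of all genes and 56.9% of the 21936 protein-coding genes. By library, 8 genes were on in c11, 4 in c15 and 9 in c22, against 8 in mock. Those are 21.1%, 10.5% and 23.7%, against 21.1%, and the same shares over protein-coding genes were 53.0%, 52.9% and 53.0%, against 54.1%. Because the tumours are bulk tissue, fewer cells that use a gene and less RNA of it per cell cannot be told apart.

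**Figure D1:**
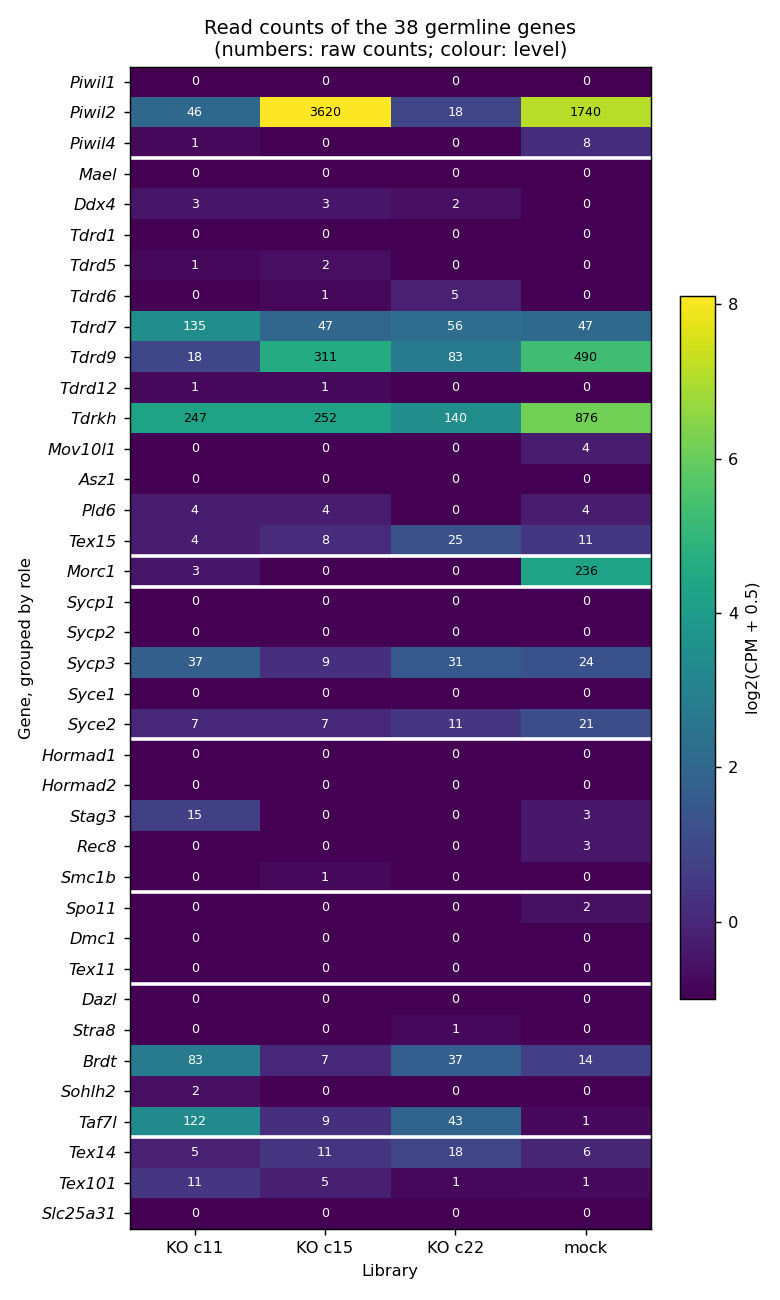
Raw read counts (numbers) and log2(CPM + 0.5) (colour) of the 38 germline genes in the libraries c11, c15 and c22 (HIF-1alpha knockout) and mock, with white lines between roles. A reader should see that 26 rows stay dark in every column and that the bright cells differ from column to column, as in Piwil2 with 46, 3620 and 18 counts in c11, c15 and c22, against 1740 in mock.

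The 12 genes that were on differed in which libraries had them on. Piwil2, Tdrd7, Tdrd9 and Tdrkh were on in all 4 libraries. Sycp3 and Brdt were on in c11, c22 and mock, Taf7l was on in c11 and c22, Stag3 in c11 alone, Tex14 and Tex15 in c22 alone, and Morc1 and Syce2 in mock alone. Library c15 thus had none of the 8 on-off genes on. Of the 12 genes, 8 were on in some libraries and off in others (66.7%), against 12.7% of the 12491 protein-coding genes that were on in at least 1 library. Level bears on that share: all 7 genes with a highest level under 10 CPM were on-off, as were 54.8% of protein-coding genes in that range, and of the 5 genes at 10 CPM or more 1 was on-off, against 2.02% of such protein-coding genes. For 6 of the 12 genes the difference was also at least 4-fold between the highest and lowest library, with the lowest count raised to 3, against 9.88% of protein-coding genes. A 4-fold range with or without a crossing of 1 CPM was found for 9 genes (75%), against 16.0%. These shares describe genes listed with the counts known, and nothing is read from the gap.

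Close to the threshold the calls rest on few reads. Just inside it were Brdt in mock with 14 counts (1.13 CPM) and Stag3 in c11 with 15 counts (1.16 CPM). Just outside it were Tex15 in mock with 11 counts (0.888 CPM), Tex101 in c11 with 11 counts (0.852 CPM), Syce2 in c22 with 11 counts (0.841 CPM) and Tex14 in c15 with 11 counts (0.834 CPM). The 95% counting interval spanned 1 CPM for 5 of the calls of on and 12 of the calls of off. The on calls were those of Brdt and Stag3 above, Piwil2 in c22 (18 counts, 0.816 to 2.17 CPM), Tdrd9 in c11 (18 counts, 0.826 to 2.20 CPM) and Tex14 in c22 (18 counts). Among the off calls were Sycp3, Taf7l and Brdt in c15, with upper limits of 1.29, 1.29 and 1.09 CPM. That Piwil2 and Tdrd9 were on in all 4 libraries, and that c15 lacked Sycp3, Taf7l and Brdt, therefore rests on calls that counting error alone could turn.

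**Figure D2:**
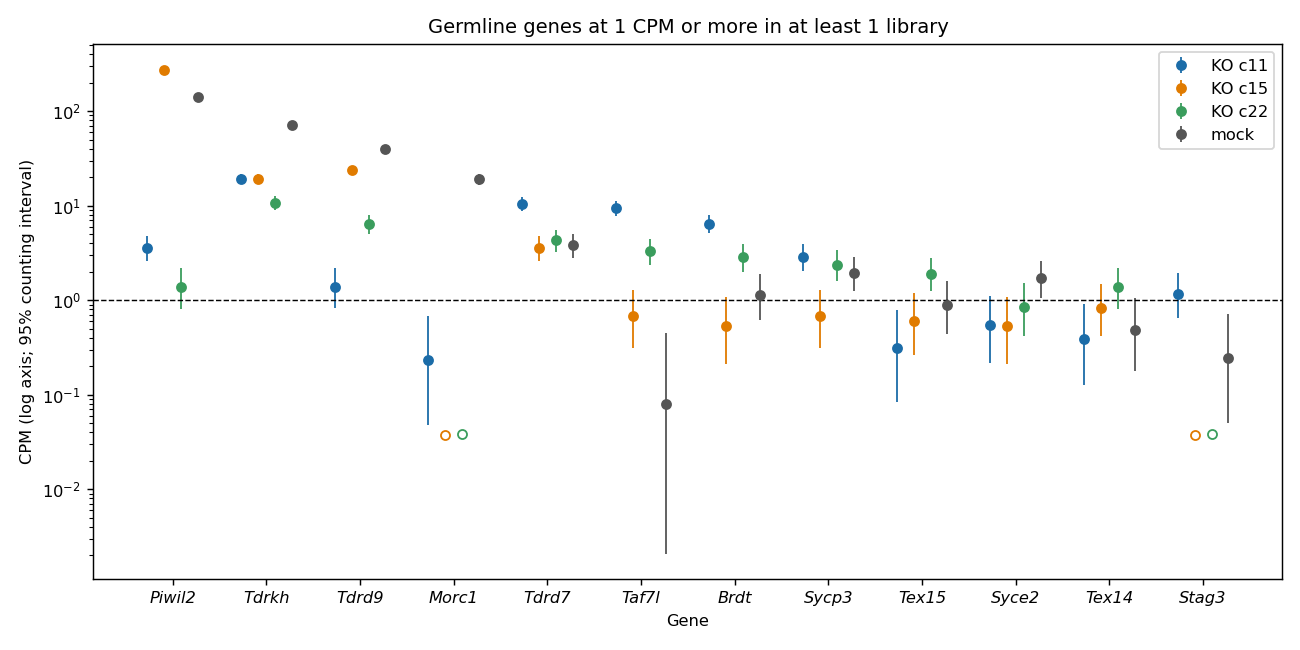
Level in CPM on a log axis of the 12 germline genes that reached 1 CPM in at least 1 library, with exact 95% Poisson counting intervals. Knockout libraries c11, c15 and c22 are drawn left of mock, open circles mark 0 counts and are placed below the level of 1 count, and the dashed line is 1 CPM. Piwil2, Tdrkh, Tdrd9 and Morc1 reach the highest levels, from 274 CPM for Piwil2 in c15 to 19.06 CPM for Morc1 in mock.

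The PIWI gene Piwil2 (chromosome 14, 70372477 to 70429383, GRCm38, minus strand), which encodes the PIWI protein MILI of early male germ cells, had the widest range. It was at 3.56 (c11), 274 (c15) and 1.38 CPM (c22), against 141 CPM in mock. Library c15 was above mock, and c11 and c22 were far below it, so the knockout libraries lay on both sides. The 95% counting intervals were 2.61 to 4.75, 266 to 283 and 0.816 to 2.17 CPM, against 134 to 147 CPM. The ratio of c15 to c22 was 199, and of 12491 protein-coding genes on in at least 1 library 11 had a wider range. The knockout mean was 93.1 ± 157 CPM (SD, n = 3), and the fitted log2 fold change of knockout over mock was -0.59 (SE 2.25). Without c15 the fitted value was -5.83. In c15, where Piwil2 was highest, the muscle and macrophage marker sums were below those of mock (1.74 against 111 CPM and 375 against 850 CPM). The neutrophil marker sum was above that of mock (13.5 against 9.93 CPM). The part of these cells in the level of Piwil2 was not tested.

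The neighbours of Piwil2 had much narrower ranges, and some had the same high libraries. Polr3d, an RNA polymerase III subunit gene 9.37 kb upstream, was at 37.2 (c11), 52.8 (c15) and 32.0 CPM (c22), against 45.0 CPM in mock. On the other side Slc39a14, a metal transporter gene 21.1 kb downstream, was at 71.5, 146 and 93.5 CPM, against 118 CPM. Sorbs3, the furthest of the 6 nearest expressed protein-coding genes, was at 0.232, 2.12 and 0.994 CPM, against 1.45 CPM, and had the widest range of them (9.13-fold). In Polr3d, Slc39a14 and Sorbs3, c15 and mock were the highest libraries, as in Piwil2. Ppp3cc, Bmp1 and Reep4 had other orders. Ppp3cc was higher in c22 (22.7 CPM) than in mock (21.6 CPM). Bmp1 was lowest in c15 (120 CPM, against 166 CPM in mock), and Reep4 was higher in c11 (43.6 CPM) than in mock (37.2 CPM). The other PIWI genes were off. Piwil4, which encodes the nuclear PIWI protein MIWI2, had 1, 0 and 0 counts in c11, c15 and c22, against 8 in mock, and Piwil1 had no count.

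Tdrd9 (chromosome 12, 111971559 to 112068854, plus strand), which encodes a Tudor-domain helicase of the piRNA pathway, was, like Piwil2, higher in c15 and mock than in c11 and c22. It was at 1.39 (c11), 23.6 (c15) and 6.35 CPM (c22), against 39.6 CPM in mock. All 3 knockout libraries were below mock, with log2 ratios of CPM + 0.5 from -4.40 (c11) to -0.74 (c15). The knockout mean was 10.4 ± 11.6 CPM (SD, n = 3). Its downstream neighbour Aspg, an asparaginase gene at a distance of 37.8 kb, was at 0.232 (c11), 10.9 (c15) and 1.07 CPM (c22), against 6.30 CPM in mock. Beyond it Kif26a was at 0, 0.0758 and 0 CPM, against 5.09 CPM. Upstream, Atp5mpl at 4.58 kb was at 109, 107 and 120 CPM, against 119 CPM. High and low libraries were therefore alike for Tdrd9 and Aspg, but not for the upstream gene.

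Tdrkh (chromosome 3, 94413273 to 94434668, plus strand) encodes a Tudor protein on the mitochondrial surface that helps to trim piRNAs. It had 247 (c11), 252 (c15) and 140 counts (c22), against 876 counts in mock (70.7 CPM). The knockout libraries were close to each other and all below mock, with a mean of 16.3 ± 4.86 CPM (SD, n = 3) and a fitted log2 fold change of -2.11 (SE 0.41). Oaz3, a testis gene that overlaps Tdrkh on the other strand, had 573, 559 and 325 counts in c11, c15 and c22, against 545 in mock. The sources used here do not say whether reads were assigned by strand, so reads of the pair may not have been kept apart. The next gene downstream, Mrpl9, was at 161, 155 and 104 CPM, against 133 CPM.

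Among the remaining Tudor and nuage genes, Tdrd7 was the third that was on throughout. Tdrd7, which is also used outside the germline in the lens, was at 10.5 (c11), 3.56 (c15) and 4.28 CPM (c22), against 3.80 CPM in mock, so that c11 alone stood apart. Tex15, which acts in piRNA-directed silencing, was at 0.310, 0.606 and 1.91 CPM, against 0.888 CPM, with overlapping counting intervals between c22 and mock. Ddx4, the germ cell helicase VASA, had 3, 3 and 2 counts, against 0 in mock. Pld6 had 4, 4 and 0 counts, against 4, and Mov10l1, the helicase that starts piRNA production, had 0 counts in each knockout library, against 4. Tdrd5, Tdrd6 and Tdrd12 had at most 5 counts in a library, and Mael, Tdrd1 and Asz1 had none.

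Morc1 (chromosome 16, 48431237 to 48630900, plus strand) encodes an ATPase that silences transposons in male germ cells. It had 3, 0 and 0 counts in c11, c15 and c22 (0.232, 0 and 0 CPM), against 236 counts (19.06 CPM) in mock. Mock was on and each knockout library was at or under the floor of 3 counts. With the knockout counts summed, mock was 249 times higher, with an exact 95% counting interval of 84.1 to 1216. With the knockout count raised to 3, Morc1 was 83.8-fold lower in c15 and 83.1-fold lower in c22 than in mock, counting error left out. The exact 95% counting intervals reached up to 0.280 CPM in c15 and 0.282 CPM in c22, against 16.7 to 21.7 CPM in mock. Its nearest expressed neighbours were far away, with Retnla at 212 kb downstream and Nectin3 at 1933 kb upstream. Retnla was at 10.6 (c11), 28.7 (c15) and 23.4 CPM (c22), against 38.4 CPM in mock, and the next gene, Retnlg, at 0.775, 0.910 and 1.68 CPM, against 3.63 CPM. Both were thus highest in mock, as Morc1 was, with narrower ranges, and Retnlg is also on the list of neutrophil markers. Nectin3 was at 58.2, 30.5 and 50.5 CPM, against 41.3 CPM, and was highest in c11. Of the further neighbours, Gm4737 was highest in mock (48.8 CPM), Plcxd2 in c11 (25.7 CPM) and Dzip3 in c22 (91.3 CPM). The marker sums of macrophages, muscle, erythroid and endothelial cells were also highest in mock. Those of neutrophils (15.6 CPM in c22, against 9.93 CPM in mock), fibroblasts and osteoblasts were highest in c22. The fibroblast sum was mostly Col3a1, and the fibroblast markers Dcn, Cd34, Thy1 and Dpt were highest in mock. The part of any of these cells in the level of Morc1 was not tested.

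**Figure D3:**
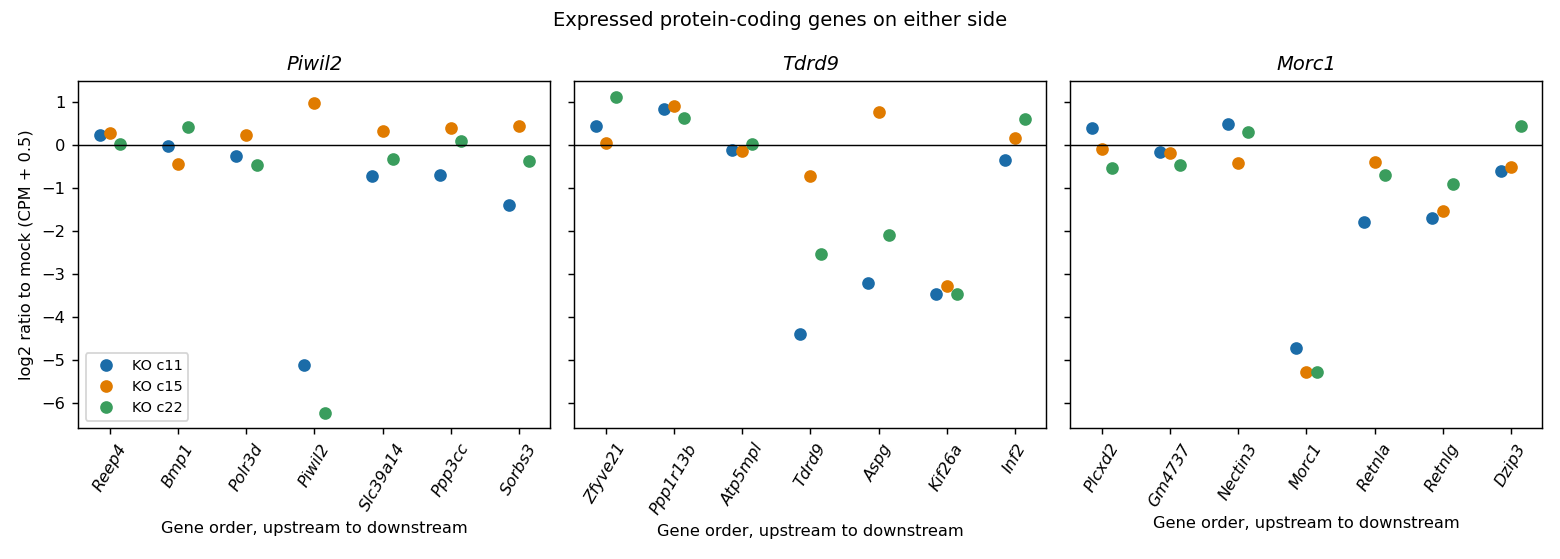
Log2 ratio to mock of (CPM + 0.5) in the knockout libraries c11, c15 and c22 for Piwil2, Tdrd9 and Morc1 and for up to 3 expressed protein-coding genes on each side, in gene order from upstream to downstream. Piwil2 and Morc1 lie far below the line beside neighbours closer to it (apart from Piwil2 in c15, which lies above), while beside Tdrd9 the downstream gene Aspg lies low in c11 and c22 and Kif26a in all 3.

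The regulators of germ cell transcription had another order of libraries. Taf7l (chromosome X, 134460118 to 134476490, minus strand), which encodes a germ cell form of a TFIID subunit, was at 9.45 (c11), 0.682 (c15) and 3.29 CPM (c22), against 0.0808 CPM (1 count) in mock. All knockout libraries were above mock, and c11 and c22 were on. Mock was at 0.0182 times the level of the summed knockout libraries (exact 95% counting interval 4.58e-04 to 0.103). Brdt (chromosome 5, 107331159 to 107387058, plus strand), the testis bromodomain gene that reads acetylated histones in spermatids, was at 6.43 (c11), 0.531 (c15) and 2.83 CPM (c22), against 1.13 CPM in mock. Library c11 was the highest and c15 the lowest, and mock lay between c15 and c22. Both genes were thus highest in c11 and then c22, the libraries in which Piwil2 was lowest. Dazl, a germ cell RNA-binding protein gene, had no count, Stra8, which starts meiosis, had 1 count in c22, and Sohlh2 had 2 in c11.

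Genes of meiotic chromosomes were low throughout. Sycp3 (chromosome 10), which encodes a protein of the chromosome axis, was at 2.87 (c11), 0.682 (c15) and 2.37 CPM (c22), against 1.94 CPM in mock, and c15 was the library that was off. It overlaps Chpt1 on the other strand, which had 500, 234 and 335 counts in c11, c15 and c22, against 295 in mock. Sycp3 had 37, 9 and 31 counts, against 24, so the order of libraries was the same. As for Tdrkh, reads of the pair may not have been kept apart, and the part of Chpt1 reads was not tested. Syce2, a central element gene of the synaptonemal complex, was at 0.542, 0.531 and 0.841 CPM, against 1.70 CPM, and overlaps Gcdh on the other strand. Gcdh had 385, 349 and 451 counts, against 436 in mock, and the same limit holds for that pair. Stag3, a meiotic cohesin subunit gene, had 15, 0 and 0 counts, against 3 in mock. Rec8 had 0 counts in each knockout library, against 3 in mock, and Smc1b had 1 count in c15. Spo11, which makes the meiotic DNA breaks, had 0 counts in the knockout libraries, against 2. Sycp1, Sycp2, Syce1, Hormad1, Hormad2, Dmc1 and Tex11 had none.

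Of the remaining testis genes, Tex14, which builds the bridges between germ cells, was at 0.387 (c11), 0.834 (c15) and 1.38 CPM (c22), against 0.485 CPM in mock. Tex101, a surface protein gene of germ cells, had 11, 5 and 1 counts, against 1 in mock. The germ cell ADP/ATP carrier gene Slc25a31 had no count in any library.

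Per kilobase of exon, so that genes can be set against each other, Piwil2 was the most abundant of the 38 genes in mock and c15. Its level was 51.9 FPKM in c15, against 26.6 FPKM in mock. Next in mock were Tdrkh at 11.5 FPKM, Tdrd9 at 7.31 FPKM and Morc1 at 2.94 FPKM. In c11 the highest was Taf7l at 4.21 FPKM, followed by Tdrkh at 3.12 FPKM, Tdrd7 at 2.64 FPKM and Sycp3 at 2.27 FPKM. In c22 it was Sycp3 at 1.87 FPKM, then Tdrkh at 1.74 FPKM and Taf7l at 1.46 FPKM. In c15 Tdrd9 at 4.35 FPKM and Tdrkh at 3.11 FPKM followed Piwil2. The leading gene differed between libraries, and Tdrkh was among the highest 3 in each of them. Tdrkh and Sycp3 overlap Oaz3 and Chpt1 on the other strand, so their levels may hold reads of those genes. Sycp3 led c22 with 31 counts, and counting error was left out of these ranks.

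**Figure D4:**
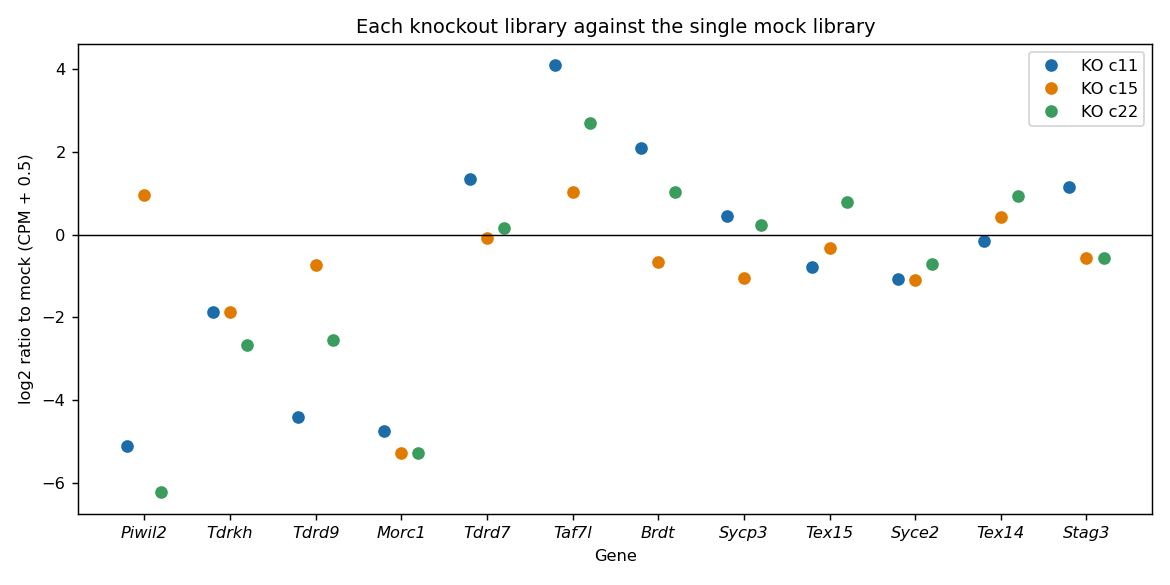
Log2 ratio of each knockout library (c11, c15, c22) to the mock library, on CPM with 0.5 added, for the 12 genes that reached 1 CPM in at least 1 library. Tdrkh, Tdrd9, Morc1 and Syce2 lie below 0 in all 3 libraries, Taf7l lies above 0 in all 3, and Piwil2 runs from -6.23 in c22 to 0.96 in c15.

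The design compares HIF-1alpha knockout with mock, and over that contrast the germline genes had no shared direction. Of the 13 genes that passed the filter on low counts, 4 (Tdrd9, Tdrkh, Morc1 and Syce2) were below mock in all 3 knockout libraries, against 22.5% of tested genes, and 1 (Taf7l) was above mock in all 3, against 21.0%. The other 8 had knockout libraries on both sides of mock. A gene such as Morc1 passed the filter only through the library where it is high, and the 3 ratios share the mock library, so the counts support nothing. The median fitted log2 fold change of the 13 genes was 0.09, beside 0.05 over all 15706 tested genes. With edgeR's quasi-likelihood test, adjusted over all genes, 0 of the 13 were called. Over all genes edgeR called 0.0% higher and 0.00637% (1 gene) lower. DESeq2 called 1 of the 13, Tdrkh, as lower (0.42% of all genes, and 0.306% as higher), and limma-voom called 0, with 0.0% of all genes in either direction.

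The genes were chosen by symbol, and whether known promoter letters bore on that choice cannot be told, so the shares below are descriptions and nothing is read from their gap. RefSeq windows on GRCm38.p6, from 250 bases before to 50 after a transcript's start, were found for 32 of the 38 genes. Piwil2, Morc1, Tdrd6, Tex11, Tex15 and Spo11 had no entry. The start is that of RefSeq, and for 29 of the 32 genes it lay within 500 bases of the gene start given with the counts. For Piwil1, Tex101 and Stra8 it lay 33722, 4625 and 785 bases away. Each window was searched on both strands for the E-box CACGTG and the E2F letters TCCCGC, read as GCGGGA on the other strand. The E-box also holds ACGTG, the core of the hypoxia response element that HIF-1 binds, so the letters do not tell these factors apart. That core was not searched for on its own. Of the first windows of the 32 genes, 13 (40.6%) held the E-box and 13 (40.6%) the E2F letters. Over the 29 windows near the gene start, 12 held the E-box and 13 the E2F letters. In the first windows of 16802 protein-coding genes the shares were 8.11% and 26.3%. At least 1 of the motifs stood in 19 windows (59.4%), against 31.6%. The E-box was in 5 of 9 windows of genes that were on in a library and in 8 of 23 windows of genes off in all. The windows were also rich in CpG, with a median observed to expected ratio of 0.702, against 0.595 for protein-coding genes, and 0.704 for the 9 genes that were on beside 0.701 for the 23 that were off.

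The following windows are printed because Tdrd9, Tdrkh, Taf7l and Brdt carried large differences between libraries. Mael and Hormad1, both without a count, stand for the silent genes that hold both motifs. Capitals mark the E-box and E2F letters.
Tdrd9 (chr12:111971309-111971608, plus strand): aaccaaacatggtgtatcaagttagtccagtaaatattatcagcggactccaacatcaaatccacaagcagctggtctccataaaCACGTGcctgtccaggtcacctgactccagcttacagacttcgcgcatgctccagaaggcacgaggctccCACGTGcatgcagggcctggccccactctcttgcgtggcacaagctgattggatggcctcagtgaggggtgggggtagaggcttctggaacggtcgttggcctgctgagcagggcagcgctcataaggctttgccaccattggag
Tdrkh (chr3:94412994-94413293, plus strand): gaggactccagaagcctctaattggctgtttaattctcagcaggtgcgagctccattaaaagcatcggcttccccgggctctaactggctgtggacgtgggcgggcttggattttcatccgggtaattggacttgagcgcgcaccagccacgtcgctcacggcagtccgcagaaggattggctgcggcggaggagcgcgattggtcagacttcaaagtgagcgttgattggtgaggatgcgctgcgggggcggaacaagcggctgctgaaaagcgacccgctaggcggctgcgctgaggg
Taf7l (chrX:134476441-134476740, minus strand): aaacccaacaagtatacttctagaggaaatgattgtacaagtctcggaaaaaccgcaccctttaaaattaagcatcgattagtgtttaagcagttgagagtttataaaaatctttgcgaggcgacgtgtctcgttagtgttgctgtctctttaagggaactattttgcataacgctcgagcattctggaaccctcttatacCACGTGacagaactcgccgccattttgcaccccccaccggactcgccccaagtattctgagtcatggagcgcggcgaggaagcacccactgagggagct
Brdt (chr5:107330944-107331243, plus strand): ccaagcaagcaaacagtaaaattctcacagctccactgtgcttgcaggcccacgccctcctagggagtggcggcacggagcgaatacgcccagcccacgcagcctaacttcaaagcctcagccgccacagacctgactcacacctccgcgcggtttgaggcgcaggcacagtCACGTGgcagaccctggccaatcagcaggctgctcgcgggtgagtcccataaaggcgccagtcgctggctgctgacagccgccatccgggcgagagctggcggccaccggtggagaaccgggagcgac
Mael (chr1:166238695-166238994, minus strand): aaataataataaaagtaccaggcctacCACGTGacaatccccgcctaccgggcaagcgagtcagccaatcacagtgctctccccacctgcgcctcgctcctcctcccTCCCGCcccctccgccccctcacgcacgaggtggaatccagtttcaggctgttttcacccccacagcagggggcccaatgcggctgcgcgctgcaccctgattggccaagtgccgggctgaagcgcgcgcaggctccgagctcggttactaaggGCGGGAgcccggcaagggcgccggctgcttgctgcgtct
Hormad1 (chr3:95559427-95559726, plus strand): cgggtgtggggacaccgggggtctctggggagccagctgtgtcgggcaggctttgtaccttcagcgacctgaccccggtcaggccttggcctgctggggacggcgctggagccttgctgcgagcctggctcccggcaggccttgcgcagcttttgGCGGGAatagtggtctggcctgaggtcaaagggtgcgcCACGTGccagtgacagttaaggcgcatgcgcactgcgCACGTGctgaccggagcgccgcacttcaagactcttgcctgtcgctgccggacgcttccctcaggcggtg
Distances are from the RefSeq start, which for Brdt, Tdrkh and Mael lies 35, 29 and 3 bases from the gene start used with the counts. Tdrd9 held the E-box at 165 and 95 bases before its start, Brdt at 78 bases and Taf7l at 49 bases. Hormad1 held it at 57 and 20 bases before its start with E2F letters at 95 bases. In Mael the E-box lay 223 bases before the start and E2F letters lay 143 bases before and 12 bases after it. Tdrkh held neither. The E-box thus occurred before genes highest in mock (Tdrd9), before genes highest in c11 (Taf7l and Brdt) and before silent genes.

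**Figure D5:**
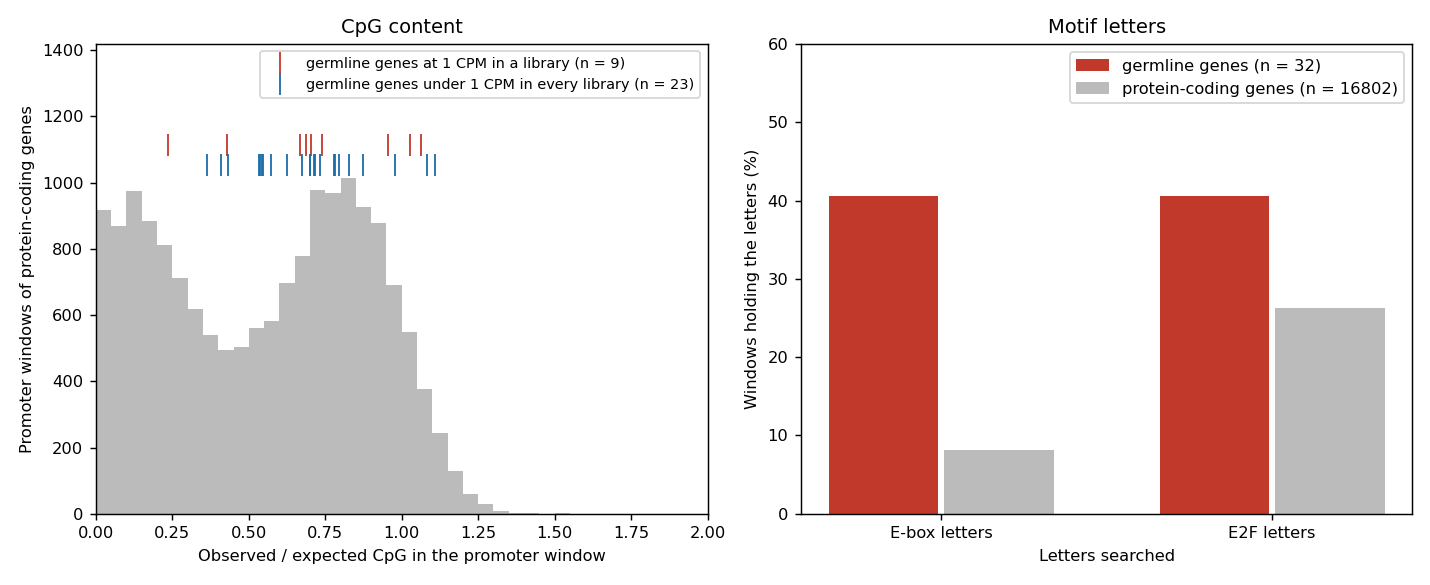
Left, observed to expected CpG ratio in first promoter windows, with grey bars for 16802 protein-coding genes and ticks for the 9 germline genes on in a library (red) and the 23 off in all (blue). Right, share of windows that hold E-box or E2F letters, 40.6% and 40.6% for 32 germline genes, against 8.11% and 26.3% for protein-coding genes.

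Other genes of the same biology were read from lists. Of 38 other meiosis and piRNA genes, 10 were on in at least 1 library and 8 in all of them, with 0 called by edgeR. Their summed level was 94.9, 100 and 79.9 CPM in c11, c15 and c22, against 82.8 CPM in mock. The piRNA trimming nuclease gene Pnldc1 was at 7.67, 0.152 and 0.459 CPM, against 3.07 CPM, and the testis helicase gene Ddx25 was at 3.18, 4.09 and 0.688 CPM, against 1.53 CPM. Those were the only on-off genes of that list. Mei4, needed for meiotic breaks, was at 3.25, 5.61 and 2.83 CPM, against 1.70 CPM, and Dnd1 was at 1.24, 2.50 and 2.06 CPM, against 2.26 CPM.

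Among X-linked cancer testis families (33 genes counted), 4 were on, none in every library, and 1, Xlr3c, was called lower by edgeR. Rhox5, a homeobox gene known for its methylation-dependent silencing, was at 8.91 (c11), 0.910 (c15) and 0.459 CPM (c22), against 12.2 CPM in mock. Xlr3a was at 17.4, 0.0758 and 0.306 CPM, against 2.26 CPM. Xlr3b had 1, 2 and 3 counts, against 49 in mock, and Xlr3c 1, 1 and 1 counts, against 130. Xlr3 genes are near-identical copies that can share reads, so their split is uncertain.

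The 20 genes of germline promoter repression were on in all 4 libraries, and edgeR called 0 of them. Their summed level was 2402, 2537 and 2585 CPM in c11, c15 and c22, against 2766 CPM in mock, and their median fitted log2 fold change was -0.04. The widest ranges were those of the DNA methyltransferase gene Dnmt3b (13.25, 6.29 and 4.51 CPM, against 9.61 CPM) and of Mga (75.3, 102 and 48.0 CPM, against 109 CPM). L3mbtl2 was at 38.9, 51.5 and 27.2 CPM, against 51.1 CPM, and Ring1 had 246, 272 and 548 counts, against 248 counts. The PRC1.6 genes Mga and L3mbtl2 were lowest in c22, as were E2f6, Rybp and Cbx3, among others of the list. Max, Pcgf6 and Ring1 were lowest in c11 and Rnf2 in mock, and Ring1 was highest in c22 (41.9 CPM). Of 6 DNA demethylation genes edgeR called 0 and DESeq2 called 1, Gadd45a, and Tet1, Tet2 and Tet3 ranged at most 1.85-fold between libraries (Tet2). Gadd45a, a stress gene also linked to demethylation, was at 62.2, 30.1 and 46.3 CPM, against 1.78 CPM, with a DESeq2 log2 fold change of 4.70 (adjusted p = 2.03e-10) and an edgeR adjusted p of 0.255.

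Markers of other gonadal cells were mostly off. Of 12 spermatid markers only Odf2l reached 1 CPM, at 33.6 (c11), 21.6 (c15) and 29.6 CPM (c22), against 25.3 CPM in mock. Of 8 Sertoli and Leydig cell markers only Sox9 did, at 67.7, 3.49 and 15.7 CPM, against 9.45 CPM, and Sox9 also marks cartilage. Neutrophil markers (6 genes) summed to 4.34, 13.5 and 15.6 CPM, against 9.93 CPM, fibroblast markers (8 genes) to 1006, 253 and 1324 CPM, against 438 CPM, and endothelial markers (6 genes) to 1.94, 2.43 and 1.61 CPM, against 4.36 CPM. Most of the fibroblast sum was Col3a1, with 976 (c11), 137 (c15) and 1216 CPM (c22), against 292 CPM in mock. Of the other fibroblast markers, Dcn, Cd34, Thy1 and Dpt were highest in mock, Pi16 and Lum in c15 and Pdgfra in c22. The fibroblast sum therefore does not measure how many fibroblasts a library held. Keratinocyte and adipocyte markers were at most 3.79 and 0.888 CPM in sum. The part of these cells in the germline levels was not tested.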

How the data were processed

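Per the labels' protocols, poly(A) RNA was made into strand-marked libraries. Reads were counted per Ensembl gene by the authors, and the deposited values are raw counts, 1 column per library. The submitters' processing notes name the build GRCm38 and the tools HISAT2 2.1.0, featureCounts 1.6.3, SAMtools 1.9, Trimmomatic 0.38 and FastQC 0.11.7, and the settings are not given in the sources used here. Pairs of libraries had a chi-square per gene from 44.3 to 82.8 (genes with at least 10 counts in the pair), so none was a copy.

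CPM was computed on total counts with pandas 2.3.3, and FPKM with exon lengths of GENCODE M21 (55227 IDs matched, all 38 genes). Counting intervals are exact Poisson (95%, SciPy 1.17.1). Where IDs shared a symbol, the ID with the highest total was used. The knockout libraries were compared with mock by edgeR 4.0.16 in R 4.3.3 (filterByExpr, TMM, robust quasi-likelihood with the non-legacy fit, 2-sided, Benjamini-Hochberg over 15706 genes, threshold 0.05). The lone mock library was assumed to vary like the knockout libraries, so p-values measure only the spread between these libraries. The SE comes from the F statistic. DESeq2 1.42.0 and limma 3.58.1 were alternatives. The 38 genes and all lists were chosen with earlier results of these data known. Genes at 1 CPM or more in a library were named, with up to 4 of the widest range from the other lists. The split at 10 CPM, the neighbours and the choice of printed windows were added after the values were seen.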

Additional observations from a re-analysis of the deposited data

How the results depend on the processing

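Of 71 alternative values of the counts of genes, 57 were within 1.5 times the reported one. With a threshold of 0.5 CPM, 10 of the 38 genes were on in c15, in place of 4, and with 2 CPM 5 were on in mock, in place of 8. The on-off count of 8 ranged from 6 to 8 over thresholds, scalings and FPKM. Leaving out a knockout library gave 3 to 5 genes with an on-off difference of at least 4-fold, in place of 6, and 3 was the value without c11. It gave 2 to 4 genes above mock in all remaining knockout libraries, in place of 1, with 4 without c15. The number of all genes called higher was 48 with DESeq2, in place of 0. The number called lower was 66 with DESeq2, 4 with no filter, 0 with limma-voom and 0 with the legacy quasi-likelihood fit (an alternative added after the data were seen), in place of 1, and it was 0 without c11, c15 or c22. With no filter edgeR called Morc1 lower.

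Of 107 alternative fold changes of the 12 named genes, 100 kept their sign. Those that turned it were Tex15, Sycp3 and Stag3, all at 3 CPM or less, and the largest was Stag3 at -1.23 with limma-voom, in place of 0.64. No paired analysis was possible because there was 1 mock library. Each line is 1 library, so a difference between lines cannot be told apart from a difference between tumours or animals, and calls near 1 CPM rest on few counts.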
